A study of Mus musculus with 6 samples.

Results

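Complement is a cascade of plasma and cell-surface proteins that marks particles, dying cells and immune complexes for uptake and can form pores in membranes. Its classical arm starts with C1q bound to its target, its lectin arm with mannose-binding lectins and ficolins, and its alternative arm with factor B and properdin, and all lead to cleavage of C3 and C5. In the vessel wall, macrophages are a known local source of C1q, the liver makes most of the circulating components, and membrane regulators on host cells limit the attack. The genes described here are 33 components, receptors and regulators of complement, taken by name. They were matched to every probe set of the array whose gene symbol, updated through gene identifiers, was one of the 33. Probe sets were found for 30 of the genes, 57 in all among 45101 probe sets on the array. C3 and C7 were not analysed here, and C4b is represented only by a probe set that the annotation assigns to C4a and C4b together.

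Total RNA extracted from whole aortas of mice at 32 weeks of age was measured on 6 single-colour arrays. The wild-type group comprised 3 arrays of C57BL/6J aorta and the apoE-/- group 3 arrays of aorta from mice without functional Apoe on that same strain. ApoE-/- mice cannot clear lipoprotein remnants normally and develop high plasma cholesterol and plaques. The labels give neither sex nor diet, and do not say whether an array holds 1 animal, a pool or a repeat preparation, so the p-values cover the spread among the 6 arrays alone, and that spread may be technical. Values are deposited intensities in array units, and changes are differences of mean log2(intensity + 16), apoE-/- minus wild type, which understate changes of dim genes. A gene was called at a limma adjusted p under 0.05 over 13031 genes tested.

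Apoe itself read 4309 to 5686 units on the wild-type arrays and 56.3 to 462 units on the apoE-/- arrays, so no label went against it. The labelled tissue was checked against smooth muscle markers, whose summed level was 57020 to 66210 units in wild type and 50640 to 62070 units in apoE-/-, and 0 of the 8 were called. Macrophage markers were called higher for 10 of 12 genes, where 3.15% of all genes tested were called higher and 0.483% lower. Correlations between arrays over the tested genes were 0.927 to 0.978 for the 15 pairs, so no array repeated another. For beta-actin, a control of RNA quality, the 3′ signal over the 5′ signal was 1.16 to 1.21 in wild type and 1.15 to 1.16 in apoE-/- without overlap, while that of Gapdh overlapped, and the part of this ratio in the results was not tested. The apoE-/- replicate 3 array stood apart in hepatocyte markers. Their summed level was 19970 units there, against 409 and 572 units on the other apoE-/- arrays and 647 to 3034 units on the wild-type arrays. The wild type replicate 3 array stood apart in skeletal muscle markers, with a summed level of 18970 units against at most 3127 units on any other array. Results that rest on the apoE-/- replicate 3 array are given below with and without it.

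Of the 29 complement genes that passed the filter on low intensity, 6 rose in apoE-/- aorta and 0 fell. Over all genes tested, 3.15% were called higher and 0.483% lower. The 6 were the C1q chains C1qa, C1qb and C1qc, the C1 protease gene C1ra, the anaphylatoxin receptor C3ar1 and the receptor Cd93. All 3 apoE-/- arrays lay above all 3 wild-type arrays for 12 of the 29 genes, against 10.9% of all genes, and below them for 1, against 13.8% of all genes. The median log2 change of the 29 was 0.38, and that of all genes tested was -0.05. At an unadjusted p under 0.05, 12 of the 29 were higher and 0 lower in limma, where 9.56% of all genes were higher. The apoE-/- replicate 2 array was the lowest apoE-/- array for all 6 called genes and for 17 of the 29. A test without shared variance, run gene by gene, called 0 complement genes and 0% of all genes after Benjamini-Hochberg adjustment. At an unadjusted p under 0.05 it had 8 complement genes higher, against 7.76% of all genes.

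The count of 6 depended on the arrays used. It was 7 without wild type replicate 1 (1.88% of all genes called higher), 5 without wild type replicate 2 (2.12%) and 4 without wild type replicate 3 (1.56%). Leaving out apoE-/- replicate 1 gave 4 (1.11%), leaving out replicate 2 of that group gave 10 (4.18%), and leaving out its replicate 3 gave 4 (1.44%). C1qa, C1qb, C1qc and C3ar1 were called in each of these fits. The count was 8 after quantile normalization (3.19% of all genes), 5 without the intensity filter (1.76%), 5 without the intensity trend (2.13%), 5 with the median of probe sets (3.03%) and 6 with the replicate number as a block (2.17%).

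**Figure D1:**
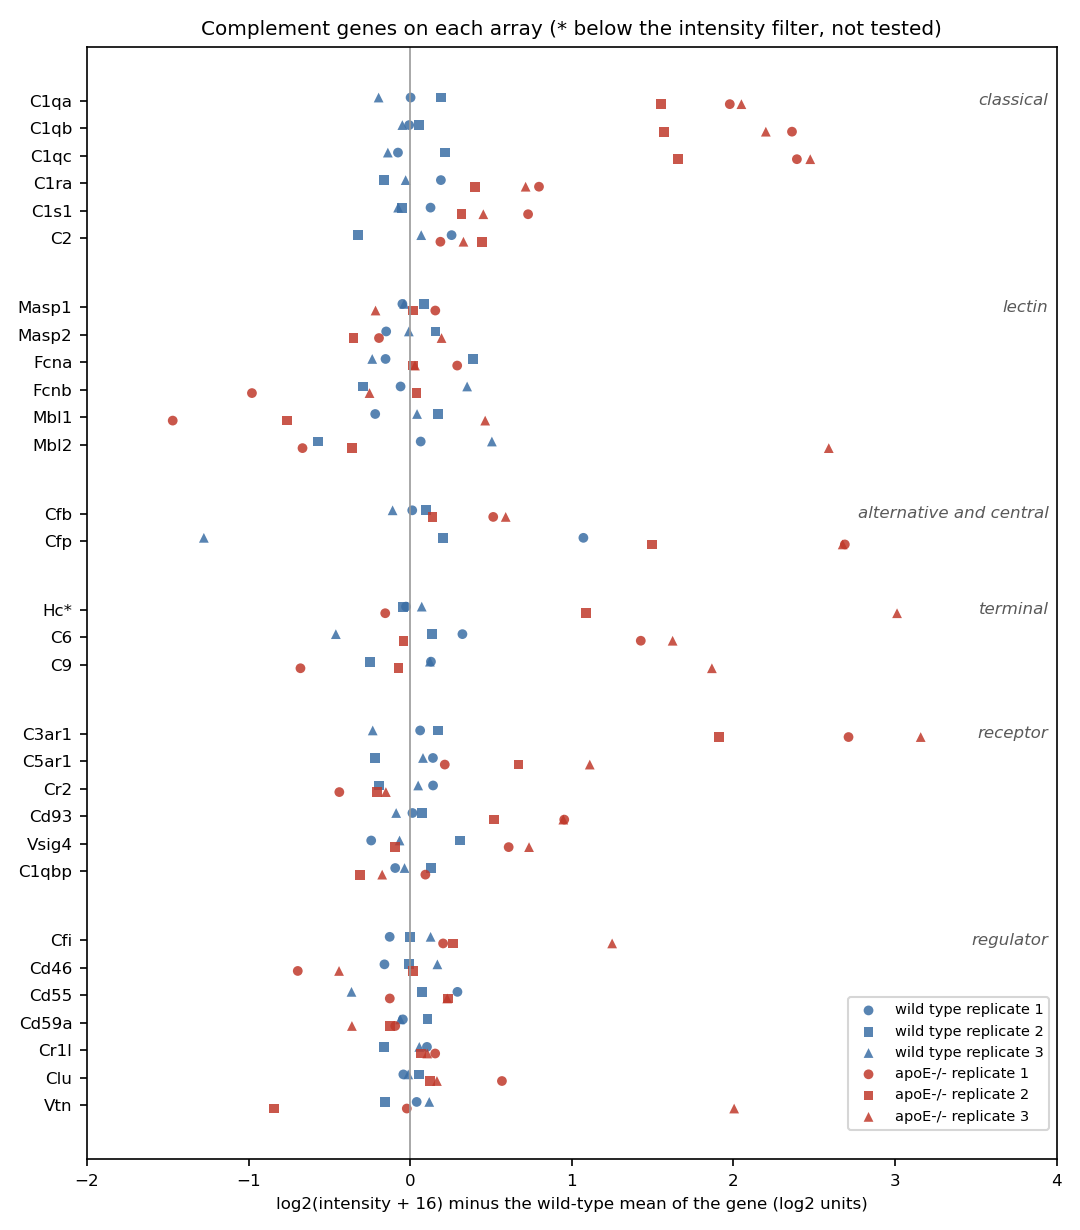
Level of each of 30 complement genes on each array, as log2(intensity + 16) minus the wild-type mean of the gene (horizontal axis, log2 units), with genes grouped by role. Blue symbols are wild-type arrays, red symbols apoE-/- arrays, and circles, squares and triangles replicates 1, 2 and 3. The 3 apoE-/- arrays lie to the right of the wild-type arrays for the C1q chains and C3ar1, while Mbl2, C9 and Vtn are far to the right on the apoE-/- replicate 3 array alone.

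The 250 bases before the RefSeq start (GRCm38.p6) of the called genes held in the promoter table, 4 of the 6, are shown because these genes rose together. Capitals mark GAGGAA on either strand (TTCCTC on the printed one), the core of the sequence bound by the myeloid factor PU.1, and TGANTCA, the sequence bound by AP-1.
C1qb, chr4:136886201-136886450, minus strand: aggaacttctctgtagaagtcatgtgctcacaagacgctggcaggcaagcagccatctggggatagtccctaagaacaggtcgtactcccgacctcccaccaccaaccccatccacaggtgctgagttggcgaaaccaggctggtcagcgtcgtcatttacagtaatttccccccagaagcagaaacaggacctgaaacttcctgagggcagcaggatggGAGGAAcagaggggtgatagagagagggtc
C1qc, chr4:136892915-136893164, minus strand: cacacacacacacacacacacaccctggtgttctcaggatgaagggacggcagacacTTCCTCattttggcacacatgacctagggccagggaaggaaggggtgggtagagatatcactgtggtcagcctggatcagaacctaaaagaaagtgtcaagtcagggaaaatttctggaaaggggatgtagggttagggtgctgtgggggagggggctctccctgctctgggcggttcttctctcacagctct
C1ra, chr6:124512371-124512620, plus strand: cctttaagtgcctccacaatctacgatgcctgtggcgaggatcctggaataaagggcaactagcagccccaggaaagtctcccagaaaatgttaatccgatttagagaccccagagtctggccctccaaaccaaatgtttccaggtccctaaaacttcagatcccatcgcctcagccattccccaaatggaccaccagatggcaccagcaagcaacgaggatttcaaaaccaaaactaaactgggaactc
C3ar1, chr6:122856158-122856407, minus strand: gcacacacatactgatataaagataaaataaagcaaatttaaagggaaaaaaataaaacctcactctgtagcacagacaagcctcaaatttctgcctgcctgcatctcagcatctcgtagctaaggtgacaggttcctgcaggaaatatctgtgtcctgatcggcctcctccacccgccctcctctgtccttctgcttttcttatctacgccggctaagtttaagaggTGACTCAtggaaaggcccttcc
GAGGAA begins 30 bases before the start of C1qb and 193 bases before that of C1qc, and TGANTCA 22 bases before that of C3ar1. Of 32851 promoter windows of the same length, 23.3% held GAGGAA and 6.75% TGANTCA on either strand. Among the 25 complement genes of the 33 with a window, 5 held GAGGAA. A match of letters is a description and does not show a bound site. C1qb, C1qc and C1qa lie next to one another on chromosome 4 in the GRCm38.p6 gene table.

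The recognition part of C1 rose the most among the classical genes. C1q is built from A, B and C chains, which assemble into a bouquet that binds antibody, pentraxins and dying cells. C1qa read 1769, 2021 and 1541 units on wild-type replicates 1, 2 and 3 and 7003, 5218 and 7362 units on apoE-/- replicates 1, 2 and 3. Every apoE-/- array was far above every wild-type array, and the mean rose from 1777 ± 240.4 to 6528 ± 1148 units (SD, n = 3). The log2 difference was 1.86 with an SE of 0.15, and the limma adjusted p was 0.000789.

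C1qb read 1734, 1809.7 and 1683 units in wild type and 9021, 5207 and 8062 units in apoE-/-, a log2 change of 2.04 ± 0.18 (limma adjusted p = 0.000939). Its wild-type arrays lay close together (SD 63.6 units), and its apoE-/- arrays spread more widely (SD 1984 units). C1qc read 1594, 1951 and 1525 units in wild type and 8891, 5329 and 9416 units in apoE-/-, a log2 change of 2.17 ± 0.21 (limma adjusted p = 0.00133). The 3 changes correspond to 3.63-fold, 4.13-fold and 4.51-fold on the log2(intensity + 16) scale, and their 95% intervals overlapped (1.52 to 2.2, 1.63 to 2.46 and 1.71 to 2.64).

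All 3 chains were called whichever single array was left out, with log2 changes between 1.76 and 2.43. C1qb was measured by 3 probe sets, which had log2 changes of 2.21, 1.84 and 2.04, each called when all probe sets were tested separately. Macrophage markers were also higher in apoE-/-. Their summed level was 18860 to 20140 units in wild type and 55360, 38710 and 58720 units on apoE-/- replicates 1, 2 and 3, with a median log2 change of 1.69 for the 12 markers. Replicate 2 was the lowest apoE-/- array for this sum and for the 3 chains, as for 17 of the 29 complement genes. The sum, C1qa and C1qc were highest on apoE-/- replicate 3, and C1qb on replicate 1. In whole-aorta RNA, more cells of a type and more RNA per cell cannot be told apart, and the part of macrophage number in these changes was not tested.

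**Figure D2:**
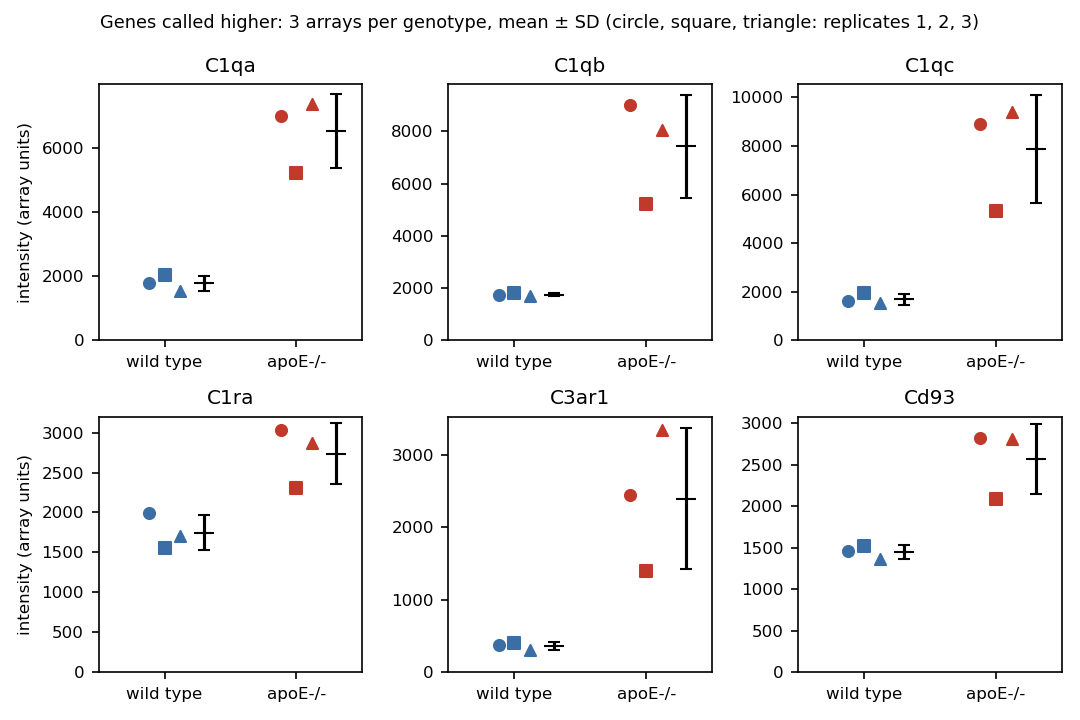
Intensity in array units (vertical axes, from 0) of the 6 complement genes called higher, for the 3 wild-type (blue) and 3 apoE-/- (red) arrays, with circles, squares and triangles for replicates 1, 2 and 3 and black bars for mean ± SD. In each panel the groups do not overlap and the square, apoE-/- replicate 2, is the lowest apoE-/- array.

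The proteases that C1q activates changed less than C1q. C1ra, which encodes the protease that cuts C1s, read 1988, 1554 and 1707 units in wild type and 3036, 2305 and 2866 units in apoE-/-. The groups did not overlap, and the log2 change of 0.64 ± 0.13 was called (limma adjusted p = 0.0368). The call was lost when wild type replicate 2 (adjusted p 0.0943) or 3 (0.122) was left out. Leaving out apoE-/- replicate 1 (0.14) or 3 (0.148), the intensity filter (0.0577) or the intensity trend (0.0846) ended it too. A probe set annotated to C1ra and its near-identical neighbour C1rb together had a log2 change of 0.48 ± 0.17 (limma over all probe sets, adjusted p = 0.208), so the call rests on 1 probe set.

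C1s1, the protease that cuts C4 and C2, read 2760, 2439 and 2399 units in wild type and 4202, 3153 and 3465 units in apoE-/-. Its groups also did not overlap, but its log2 change of 0.50 ± 0.12 missed the threshold (limma adjusted p = 0.0621), with calls without apoE-/- replicate 2 (0.0334) and after quantile normalization (0.0462). Its probe set can also detect near-identical transcripts. Fibroblast markers had the same order of apoE-/- arrays as C1ra and C1s1, with a summed level of 54100 to 55890 units in wild type and 76630, 61030 and 63130 units on apoE-/- replicates 1, 2 and 3. Of these 7 markers 1 was called higher, where 3.15% of all genes tested were. Their median log2 change was 0.18, and their part in the changes of C1ra and C1s1 was not tested. The summed adipocyte markers had that order too, with 37220, 26320 and 27400 units on apoE-/- replicates 1, 2 and 3 and 28170 to 47480 units in wild type. C2, the precursor of the C3 convertase protease, had overlapping groups on the probe set that represents it (1343 to 2016 units in wild type, 1921 to 2302 units in apoE-/-). The log2 change there was 0.32 (95% interval -0.02 to 0.66, limma adjusted p = 0.298). Without wild type replicate 2, the lowest array, it was 0.16. The 3 probe sets of C2 had log2 changes of 0.32 to 0.68, and none was called. On the others the groups did not overlap, with 507 to 774 units in wild type and 826 to 1007 units in apoE-/-, and 210 to 311 and 318 to 521 units.

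The probe set shared by C4a and C4b cannot tell these genes apart and is not counted among the 29. It read 2824, 2859 and 2459 units in wild type and 8442, 4422 and 6239 units in apoE-/-. All apoE-/- arrays were higher, and the log2 change of 1.18 ± 0.20 was called among all probe sets (limma adjusted p = 0.0168), where 2.44% were called higher and 0.281% lower.

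Receptors were led by C3ar1, the G protein-coupled receptor for the C3a fragment, found on myeloid cells. It read 376, 407 and 304 units in wild type and 2447, 1395 and 3341 units in apoE-/-, a log2 change of 2.59 ± 0.28 or 6.03-fold (limma adjusted p = 0.00216). The lowest apoE-/- array was more than 3 times the highest wild-type array. This was the largest log2 change of the 29 genes, its other probe sets had changes of 2.63 and 3.16, and it was called whichever array was left out (log2 changes of 2.31 to 2.94).

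C5ar1, the receptor for C5a, read 247, 189 and 236 units in wild type and 261, 364 and 499.5 units in apoE-/-. Its groups did not overlap, yet the log2 change of 0.66 ± 0.23 was not called (limma adjusted p = 0.179, 95% interval 0.13 to 1.2), nor was the change of 1.02 ± 0.23 of a further probe set (0.0564 over all probe sets). For the first probe set, leaving out apoE-/- replicate 3, its highest array, gave 0.44. Cd93, a lectin-like receptor of endothelium and myeloid cells first described as a C1q receptor, rose from 1453 ± 81.6 to 2575 ± 424.5 units (SD, n = 3), with 1466, 1528 and 1366 units in wild type and 2825, 2085 and 2814 units in apoE-/-. The log2 change was 0.81 ± 0.13 (limma adjusted p = 0.0128), and the groups did not overlap.

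The Cd93 call was lost when wild type replicate 3 (adjusted p 0.0568), apoE-/- replicate 1 (0.0686) or apoE-/- replicate 3 (0.0636) was left out, and with the median of its probe sets (log2 change 0.39, 0.0743). Its other bright probe set, at 1213 to 1711 units in wild type and 1937 to 2823 units in apoE-/-, had a log2 change of 0.68 ± 0.17 without a call. Of the 2 dim probe sets above the filter, 1 read 62.8 to 154 units in wild type and 145 to 185 units in apoE-/- (0.71 ± 0.29) and the other 166 to 218 and 176 to 225 units, where the groups overlapped almost fully. Endothelial markers, which share a cell type with Cd93, had a median log2 change of 0.28, with 1 of 7 called higher. The share called higher among all genes tested was 3.15%. Both sums of markers below are of whole lists. The summed level of the endothelial markers was 8537 to 11850 units in wild type and 11690, 11870 and 13970 units on apoE-/- replicates 1, 2 and 3. Macrophage markers, of the other cell type, had a median log2 change of 1.69, with 10 of 12 called higher. Among apoE-/- arrays, the macrophage sum, like Cd93, was lowest on replicate 2, and the endothelial sum was little lower on replicate 1 than on replicate 2. Of the endothelial markers, Cdh5, Kdr, Vwf and Emcn were lowest on replicate 2, Pecam1 and Tek on replicate 1, and Cldn5 on replicate 3. The part of either cell type in the Cd93 change was not tested.

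The other receptors were not called. Vsig4, a receptor of resident macrophages for C3 fragments, read 221, 331 and 252 units in wild type and 412, 247 and 451 units in apoE-/-, a log2 change of 0.42 (95% interval -0.14 to 0.97), with overlapping groups. Cr2, which encodes the C3d receptors of B cells and follicular dendritic cells, read 146 to 188 units in wild type and 120 to 150 units in apoE-/-, a log2 change of -0.26 (-0.70 to 0.17). None of the 4 B cell markers tested was called. C1qbp, a mitochondrial protein that also binds the heads of C1q, read 4027 to 4694 units and 3464 to 4585 units, a log2 change of -0.13 (-0.40 to 0.14), and its probe sets differed in sign (-0.13 and 0.11).

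**Figure D3:**
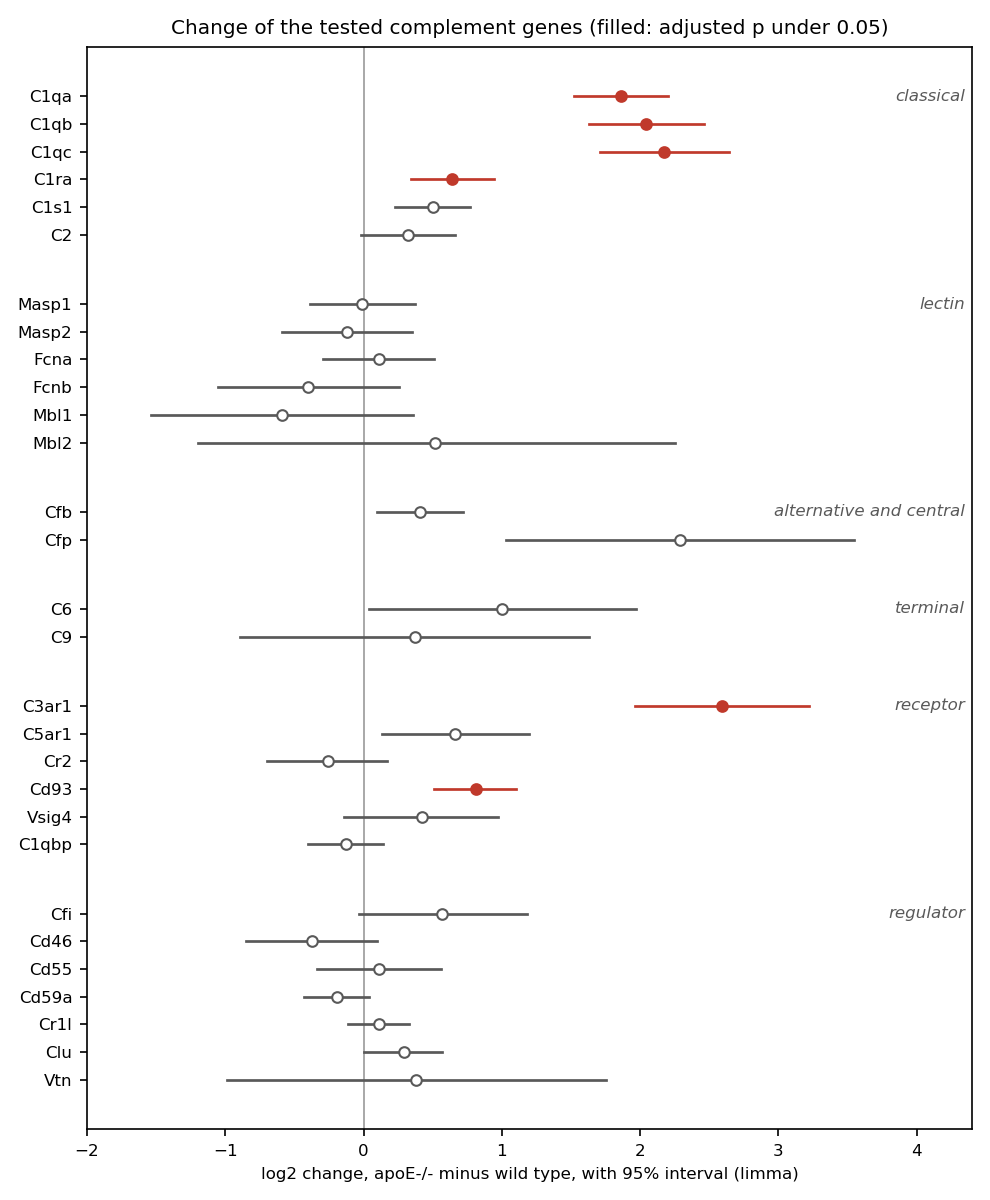
Log2 change (apoE-/- minus wild type, horizontal axis) of the 29 tested complement genes with 95% intervals from limma, grouped by role, with filled red points for an adjusted p under 0.05. The 6 called genes are in the classical and receptor groups, and the interval of Mbl2, from -1.2 to 2.25, is the widest.

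In the alternative arm, Cfp, which encodes properdin, the stabiliser of the C3 convertase, read 314, 165 and 48.7 units in wild type and 995, 427 and 986 units in apoE-/-. Every apoE-/- array was above every wild-type array, but the wild-type arrays differed among themselves several-fold, and the log2 change of 2.29 ± 0.55 was not called (limma adjusted p = 0.0638). It was called without wild type replicate 1 (0.0349) or apoE-/- replicate 2 (0.0395). A further Cfp probe set, at 301 to 321 units in wild type and 265 to 399 units in apoE-/-, had a log2 change of 0.05 ± 0.17, so the probe sets of this gene disagreed in size.

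Cfb, factor B, the protease of the alternative convertase, read 844, 896 and 775 units in wild type and 1202, 923 and 1269 units in apoE-/-. The groups did not overlap, although apoE-/- replicate 2 lay just above the highest wild-type array, and the log2 change was 0.41 ± 0.14 (limma adjusted p = 0.156, and 0.0342 without that array). The median of the 2 tested genes of this arm, 1.35, is the mean of unlike values.

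No gene of the lectin arm was called, and all 6 had overlapping groups, which was also so for most genes tested. Of all genes, 3.15% were called higher and 0.483% lower. All apoE-/- arrays lay above all wild-type arrays for 10.9% and below them for 13.8%. Fcna, ficolin A, which is made by macrophages, read 593, 869 and 559 units in wild type and 812, 669 and 675 units in apoE-/-, a log2 change of 0.11 (95% interval -0.29 to 0.51). Fcnb, the ficolin of myeloid precursors, read 177 to 286 units and 104 to 227 units, a log2 change of -0.40 (-1.05 to 0.26), or -0.11 without apoE-/- replicate 1. The lectin arm proteases Masp1 and Masp2 had log2 changes of -0.01 (-0.39 to 0.37) and -0.12 (-0.59 to 0.35), from 208 to 230 units and 152 to 191 units in wild type. The 3 Masp1 probe sets above the filter differed in sign, between -0.33 and 0.13.

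Of the mannose-binding lectins, which are made mainly in the liver, Mbl2 stood far apart on 1 array and Mbl1 did not. Mbl2 read 129, 77.4 and 181 units in wild type and 71.4, 92.0 and 819 units in apoE-/-, so that the apoE-/- replicate 3 array was 4.53 times the highest other array. Its log2 change of 0.52 (95% interval -1.2 to 2.25, limma adjusted p = 0.758) became -0.51 without that array. Mbl1 read 249.5, 332 and 302 units in wild type and 95.4, 166 and 409.5 units in apoE-/-. On apoE-/- replicate 3 it was 1.23 times the highest other array, and on apoE-/- replicates 1 and 2 it was below every wild-type array. Its log2 change of -0.59 (-1.54 to 0.36) became -1.12 without apoE-/- replicate 3 (limma adjusted p = 0.105) and -0.15 without apoE-/- replicate 1 (0.875).

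Of the terminal components, which form the membrane pore, C9 and Hc were also highest on apoE-/- replicate 3. C9, the subunit that lines the pore, read 124.5 to 167 units in wild type and 88.4, 143 and 594 units in apoE-/-, 3.56 times the highest other array on apoE-/- replicate 3. Its log2 change was 0.37 (95% interval -0.89 to 1.63) with that array and -0.38 without it. Hc, which encodes C5, fell below the filter and was not tested. It read 34.9 to 39.2 units in wild type and 31.2, 95.8 and 408 units in apoE-/-.

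C6, which joins C5b to start the pore, followed another pattern. It read 157, 136 and 84.7 units in wild type and 356, 119 and 411 units in apoE-/-, high on apoE-/- replicates 1 and 3 and within the wild-type range on replicate 2. Its log2 change of 1.0 ± 0.42 was not called (limma adjusted p = 0.256). Leaving out apoE-/- replicate 2 gave 1.53 and a call (0.0175), whereas leaving out replicate 3 of that group gave 0.69 (0.571).

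Vtn and Cfi, soluble regulators made by the liver, were also highest on apoE-/- replicate 3. Vtn, vitronectin, which keeps the terminal complex out of membranes, read 114 to 142 units in wild type and 127, 65.2 and 568 units in apoE-/-, a log2 change of 0.38 with that array and -0.43 without it. Cfi, the protease that inactivates C3b and C4b, read 264, 290.3 and 318 units in wild type and 337, 352 and 712 units in apoE-/-. Its groups did not overlap, and its log2 change of 0.57 (95% interval -0.03 to 1.18) fell to 0.23 without replicate 3, with no call in either case.

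Beside these genes, the hepatocyte markers read highest on the same array. Ttr read 117 to 751 units in wild type, 46.1 and 97.9 units on apoE-/- replicates 1 and 2, and 9292 units on replicate 3. Alb read 318 to 2028, then 216 and 351, then 6746 units, and Fgb, fibrinogen beta, 11.5 to 64.1, then 6.7 and 12.9, then 749 units. None of the 3 hepatocyte markers tested was called. Of the terminal and plasma components chosen after their values were seen, C8a read 344 units on that array and at most 71.9 units elsewhere, C8g 325.5 and at most 57.0 units, and C4bp 142 and at most 16.5 units. C8b read 62.2 units there and at most 30.9 units elsewhere. Cpn1 was not highest there, at 17.3 against up to 19.2 units on one probe set and 20.8 against up to 27.3 units on the other. None of these genes passed the filter. The part of hepatocyte RNA in these values was not tested. Without that array the C1q chains and C3ar1 kept log2 changes of 1.77 (C1qa), 1.97 (C1qb), 2.02 (C1qc) and 2.31 (C3ar1), all called.

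**Figure D4:**
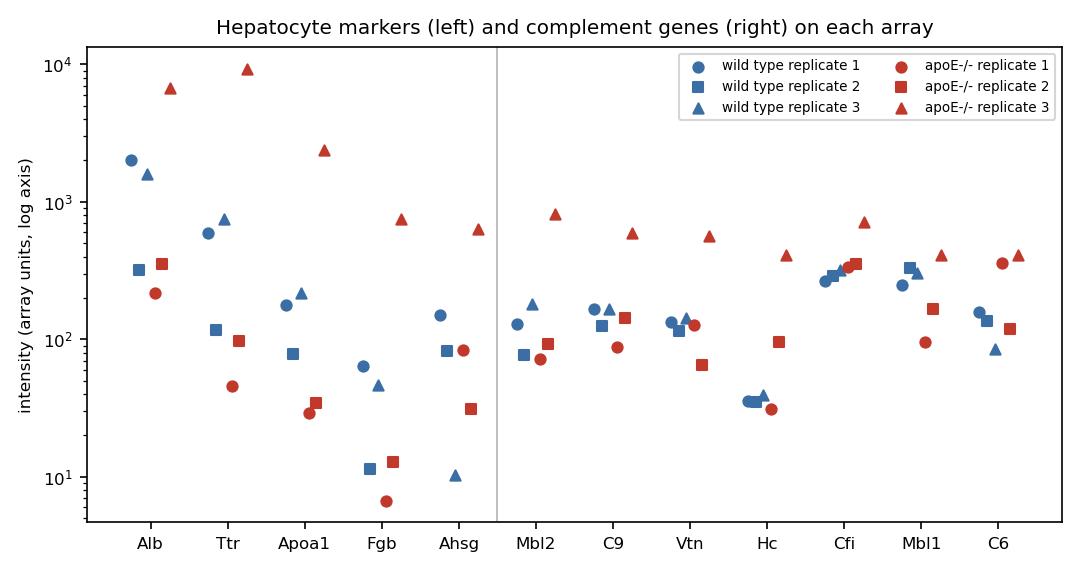
Intensity (array units, log axis) of 5 hepatocyte markers, left of the line, and 7 complement genes, right of it, on each array. The red triangle, apoE-/- replicate 3, is highest for every gene shown, from 9292 units for Ttr to 408 units for Hc, whereas the red circle is close to it only for C6. The 7 complement genes are a selection of those highest on that array, so their shared pattern tests nothing. Of the 29 tested complement genes, 14 had it as the highest apoE-/- array, and Masp1, C1s1 and C2, among others, did not.

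None of the 7 regulators was called, where 3.15% of all genes tested were called higher and 0.483% lower. Clu, clusterin, a chaperone that binds the forming pore, read 11151, 11926 and 11388 units in wild type and 17028, 12502 and 12882 units in apoE-/-. The groups did not overlap, and apoE-/- replicate 1 was the highest array on all 4 Clu probe sets, whose log2 changes were 0.22 to 0.41. The log2 change of the probe set that represents Clu was 0.29 ± 0.12 (limma adjusted p = 0.268), and it was called only after quantile normalization (0.27, 0.0481). Without apoE-/- replicate 1 it was 0.14 (0.4). The summed fibroblast markers given beside C1s1 were also highest on that array. Among the apoE-/- arrays, so were the summed smooth muscle markers (62070 units) and adipocyte markers (37220 units), both within their wild-type ranges. The part of these cell types in the Clu values was not tested.

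Among the membrane regulators, Cd59a, which blocks C9, was the only one of the 29 genes with all apoE-/- arrays below all wild-type arrays. It read 2376, 2643 and 2348 units in wild type and 2298, 2246 and 1906 units in apoE-/-, a log2 change of -0.19 (95% interval -0.43 to 0.04, limma adjusted p = 0.362), with -0.26 for its further probe set. Without apoE-/- replicate 3 it was -0.11. Cr1l, the mouse regulator Crry, which blocks C3 convertases, read 1776 to 2136 units and 2081 to 2213 units, a log2 change of 0.11 (-0.11 to 0.33). Cd55, decay-accelerating factor, had a log2 change of 0.11 (-0.34 to 0.56), with 0.11 to 0.39 over its 3 probe sets. Cd46, a cofactor for Cfi, read 263 to 334 units and 176 to 298 units, a log2 change of -0.37 (-0.85 to 0.10). For Cr1l and Cd59a the intervals leave out a change of 2-fold in either direction. Those of Cd55 and Cd46 do so too, but these genes are dimmer, and the scale understates changes of dim genes.

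**Figure D5:**
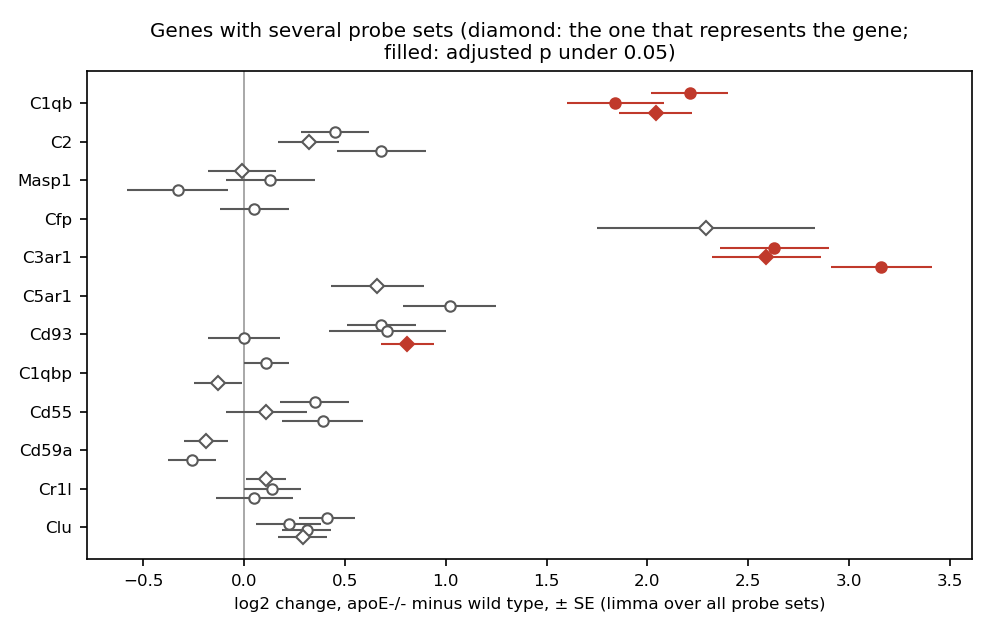
Log2 change ± SE (limma over all probe sets) of each probe set above the filter for the 12 complement genes with several, with diamonds for the probe set that represents the gene and filled symbols for an adjusted p under 0.05. The probe sets of C1qb and C3ar1 all lie above 1.8, those of Cfp lie apart at 0.05 and 2.29, and those of 10 of the 12 genes share a sign.

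Of 28 other genes of the pathway, 20 had a named probe set and 10 passed the filter. Among these 10, 3 rose and 0 fell, where 3.15% of all genes tested were called higher and 0.483% lower. All 3 encode chains of complement receptors 3 and 4, the integrins that bind iC3b on myeloid cells. Itgax read 184, 159 and 196 units in wild type and 2134, 1161 and 2856 units in apoE-/-, a log2 change of 3.31 ± 0.28 (limma adjusted p = 0.000855). Itgb2, their shared beta chain and also one of the macrophage markers, rose from 546 ± 49.8 to 3058 ± 1333 units (SD, n = 3), and Itgam from 123 ± 16.8 to 459 ± 138 units, log2 changes of 2.35 and 1.74. All 3 were called whichever array was left out.

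The uncalled genes with the smallest p were Ptx3, a pentraxin that binds C1q (log2 change 0.94, 95% interval 0.27 to 1.6), the collectin Colec11 (0.29, 0.01 to 0.57), Calr, which binds C1q on dying cells (0.09, -0.12 to 0.31), and Serping1, the C1 inhibitor (0.10, -0.16 to 0.35). Serping1 read 8466 to 9984 units in wild type and 9137 to 11312 units in apoE-/-, and its interval leaves out a change as large as that of any C1q chain.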

How the data were processed

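The authors deposited 1 intensity per probe set and array on a linear scale. The software is not given in the sources used here. In the deposited table the mean after trimming 2% at each end was 500.002 on every array, so the values had been scaled to one level. The table holds no detection calls. Names came from the platform annotation, which can be old: 34958 probe sets carried 1 gene symbol, 932 several (used for no gene) and 9160 had no entry. Older symbols were replaced from the GRCm38.p6 gene table.

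Intensities were taken as log2(intensity + 16). The 64 control probe sets and the lower 40% of the rest by mean over all 6 arrays were left out, and each gene was represented by its probe set of highest mean log2. No complement gene passed through 1 genotype alone. The 3 apoE-/- and 3 wild-type arrays were fitted in R 4.3.3 with limma 3.58.1 (eBayes with an intensity trend) and Benjamini-Hochberg adjustment over all 13031 genes, and every adjusted p is from that fit unless another is named. An exact permutation test of 3 against 3 cannot go below p = 0.1. The number of arrays, 3 a group, limits the precision.

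The genes, lists and tests were chosen with earlier results of these data known. Every gene of the list with a named probe set was described, but not each of its probe sets by value. Of the other pathway genes, the called ones and the 4 uncalled with the smallest p were described by rule. Others were added outside that rule: some terminal and plasma components after their values were seen, and Colec12, Crp and Csmd1 where signs turned. Of the marker lists not described with the results, skeletal muscle had 2 of 4 genes lower, and neutrophil (5), mesothelial (2) and adipocyte (4) none called. Among all genes tested, 0.483% were called lower and 3.15% higher. Alternatives were other offsets, scalings, filters, probe set rules, variance settings and tests, a replicate block, and leaving out each array.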

Additional observations from a re-analysis of the deposited data

How the results depend on the processing

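Leaving out 1 array gave 4 to 10 complement genes called higher, with 10 without apoE-/- replicate 2, which added C1s1, Cfb, Cfp and C6. The median log2 change of the 29 genes was 0.23 to 0.59, that of the other pathway genes 0.22 to 0.51, and 3 of the latter were called higher throughout. The gene-by-gene test without shared variance called 0 genes in both sets, with a lowest adjusted p of 0.161 among the 29. No complement gene was called lower under any setting run. Signs turned, for genes never called, for Masp1 (0.0029 after quantile normalization, 0.01 after median centring, 0.16 with the median of probe sets) and Colec12 (-0.03 with array weights). When 1 array was left out, log2 changes lay between -0.10 and 0.09 for Masp1, -0.27 and 0.00044 for Masp2, -0.0049 and 0.31 for Fcna, -0.51 and 1.11 for Mbl2, -0.38 and 0.90 for C9, -0.07 and 0.26 for Cd55, -0.43 and 0.99 for Vtn, -0.0019 and 0.15 for Serping1, -0.07 and 0.16 for Colec12, -0.44 and 0.67 for Crp, and -0.11 and 0.35 for Csmd1. Same-numbered arrays share only a number: their deviations correlated at -0.18 to -0.05, and 0 of 3 wild-type arrays correlated best with its own number. With the replicate block, 6 complement genes and 3 other pathway genes were called higher, as without it, while all genes called higher went from 410 to 283. The cause of these differences was not tested. The 60% filter left out Masp1, Masp2, Fcnb, Mbl1, Mbl2, C6, C9, Cr2, Cd46, Vtn, Itgam, Ptx3, Crp and Csmd1, which have no value there, so 2 other pathway genes were called. Dim genes under about 119 units, the filter level, have values that are not shown to be above background.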
